A study of Mus musculus with 3 samples.

Results

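Bone morphogenetic protein (BMP) and transforming growth factor beta (TGF-beta) signalling genes were described in dorsal skin of uncv null mice and of a wild type sister. The members were 44 genes of these pathways, grouped as ligands, latent TGF-beta binding proteins, receptors, Smads, antagonists or modulators, and Id or other target genes. A gene was read from a microarray probe set annotated with that symbol alone, and where several existed the one with the highest mean over the 3 arrays stood for the gene. This gave 43 of the 44 members among 18193 named genes, and Bmp3 had no such probe set. Of the 43, 34 averaged 5 or more (log2) across the arrays and were tested, among 8456 tested genes. The uncv null group held 2 arrays from uncv -/- mice and the wild type group 1 array from a uncv +/+ mouse. All were 4-day-old females of the BALB/cA strain born to heterozygous (uncv +/-) parents, and 1 biotin-labelled array was made from total RNA of each dorsal skin sample. Uncovered (uncv) arose spontaneously and leaves the coat sparse or absent, and the mutation lies in Rhbdf2, the gene of the rhomboid-like protein iRhom2. The labels do not describe the lesion itself, and dorsal skin holds epidermis, follicles, dermis, fat and muscle together.

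BMPs, activins and TGF-betas are secreted dimers that bind paired type I and type II receptor kinases. The receptors phosphorylate Smad1 and Smad5 in the BMP branch and Smad2 and Smad3 in the TGF-beta and activin branch, and these enter the nucleus with Smad4 and switch on target genes such as the Id genes and the inhibitory Smads. In skin, BMP ligands and their antagonists shape hair follicle formation and hair shaft differentiation, and TGF-betas act on follicle morphogenesis and on the dermal matrix.

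Values are on the log2 scale of RMA (a method that corrects, normalizes and summarises array probes), on which 1 unit is a 2-fold difference. Differences are uncv null minus wild type, and errors are limma's moderated SE. With 1 wild type array the spread came from the 2 uncv null arrays, so p-values measure the spread between those alone, and an exact permutation test of 1 against 2 arrays could not go below a one-sided p of 0.333. Keratinocyte markers, which define skin, were bright in every array, with a mean log2 value over Krt5, Krt14, Krt1, Krt10 and Trp63 of 11.4 and 11.7 in the uncv null arrays, against 11.4 in wild type. The arrays differed in control probe sets. Probe sets for 18S ribosomal RNA averaged 7.93 (uncv null 1) and 4.26 (uncv null 2), against 3.59 in wild type. The 3' minus 5' difference of the Actb control was 1.23 and 0.79 in uncv null 1 and 2, against 0.66 in wild type. The 18 hybridisation spike-in probe sets averaged 0.70 and 0.43 above wild type in uncv null 1 and 2. Over 13559 tested probe sets the uncv null arrays correlated with each other at a Pearson's r of 0.961 across probe sets, which are not independent, and uncv null 1 and uncv null 2 with wild type at 0.972 and 0.958.

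No member passed the test. By limma, 0 of 34 tested members had an adjusted p of 0.05 or less, as did 0% of the 8456 tested genes, and 0 of 34 had an unadjusted p under 0.05, against 245 of 8456 genes. In the fit with no filter, 3 of 43 measured members (Ltbp1, Tgfb2 and Tgfb3) had an unadjusted p under 0.05, against 734 of 18193 named genes, and none passed after adjustment. With the filter, the smallest adjusted p was 0.9996. By size, 0 of 34 members had both uncv null arrays at least 1 log2 unit away from wild type in one direction, where 0.225% of tested genes did so above and 0.296% below wild type. At 0.5 log2 units the count was again 0 of 34, where 2.52% of tested genes lay above and 1.86% below. Wild type was exceeded by both uncv null arrays in 12 members and exceeded both in 11, and the other 11 had wild type between the 2 uncv null arrays. Of all tested genes 38.8% lay on the higher side in this way and 26.4% on the lower. The median difference over the 34 members was -0.03, against 0.04 over all tested genes. Both differences share the wild type array, so agreement in side between the uncv null arrays is partly built in.

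In 20 of 34 members neither uncv null array was 0.5 log2 units or more away from wild type, a smaller share than the 77.7% of tested genes. The median absolute difference of members was 0.21 between uncv null 1 and wild type, 0.30 between uncv null 2 and wild type, and 0.29 between the uncv null arrays. Over all tested genes these medians were 0.18, 0.22 and 0.22. The larger of the 2 differences was that of uncv null 2 in 22 of 34 members, as for 59.7% of tested genes. The value of a member without 1 of the uncv null arrays is the difference of the other array, so the 2 differences printed for each member below show how much each array carries.

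**Figure D1:**
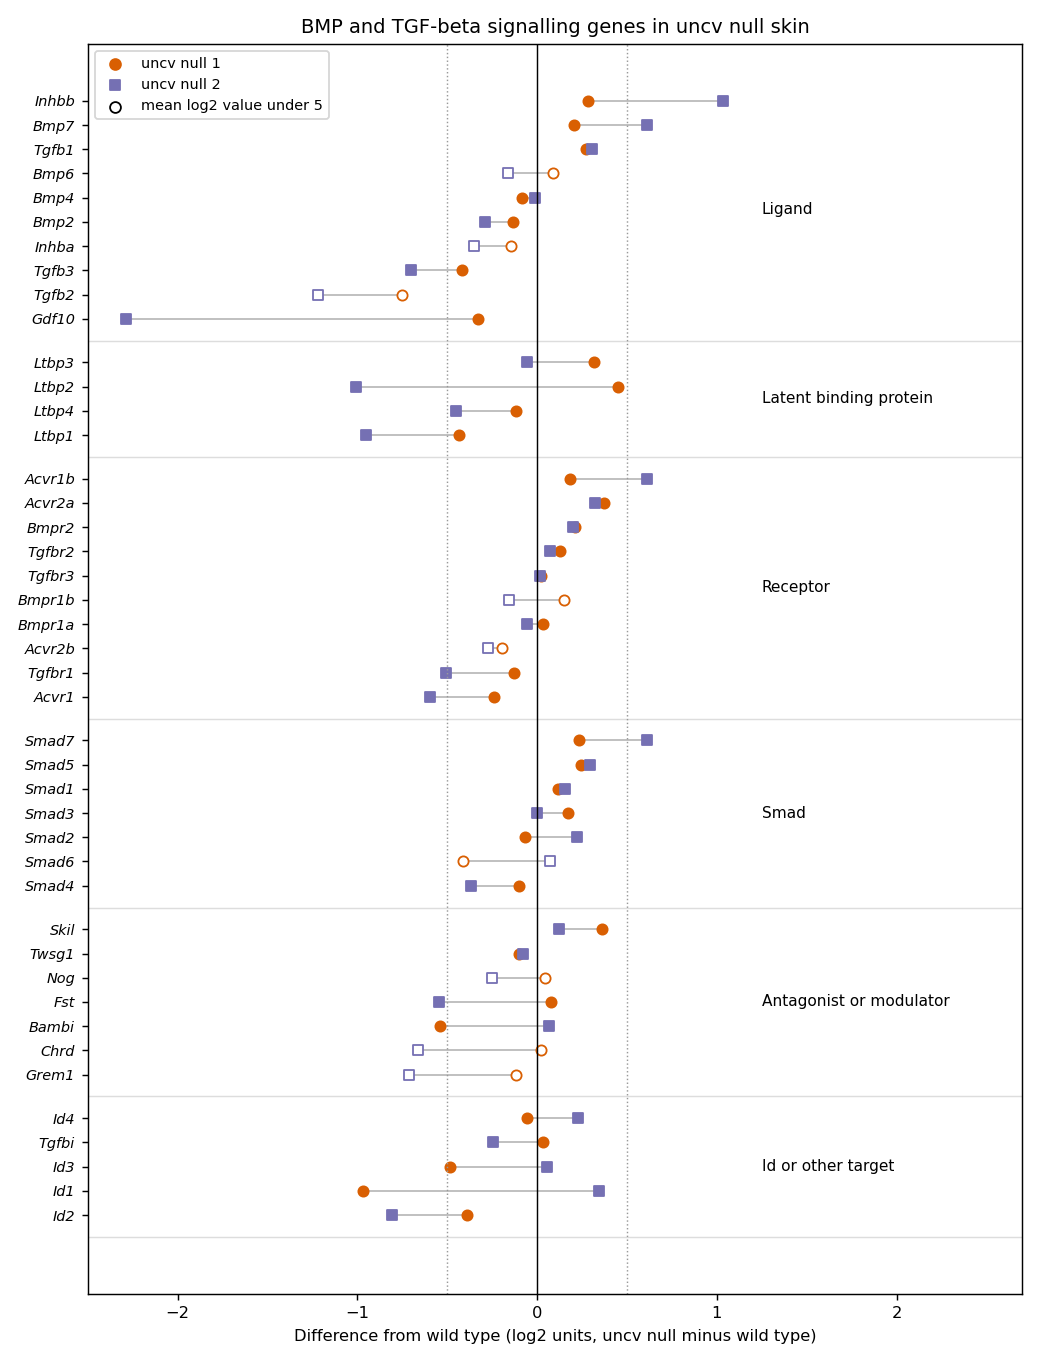
Difference from wild type (log2 units, horizontal) of each measured member in uncv null 1 (circles) and uncv null 2 (squares), grouped by role from top to bottom. Open symbols mark members with a mean log2 value under 5, and dotted lines stand at -0.5 and 0.5. Among filled symbols no gene has both marks beyond the same dotted line, and the longest bars belong to Gdf10, Ltbp2 and Id1.

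Among the ligands, the lower values fell on Tgfb2, Tgfb3 and Gdf10 and the higher ones on Inhbb and Bmp7. The promoters of the 4 measured members with the largest absolute mean differences are shown here, a difference that for Gdf10 and Inhbb comes mainly from uncv null 2. Each is given as 300 bases that run from 250 before to 50 after the annotated start, 5' to 3' along the gene, from RefSeq on GRCm38.p6. Capitals mark the letters CAGAC or GTCTG, which are a Smad-binding sequence and its reverse complement, and the palindrome GGCGCC, a GC-rich element known from BMP-responsive Smad binding. The windows are chr1:186705940-186706239 (minus strand) for Tgfb2, chr17:75005279-75005578 (plus strand) for the more distal annotated start of Ltbp1, chr14:33923337-33923636 (plus strand) for Gdf10 and chr1:119422199-119422498 (minus strand) for Inhbb.
Tgfb2: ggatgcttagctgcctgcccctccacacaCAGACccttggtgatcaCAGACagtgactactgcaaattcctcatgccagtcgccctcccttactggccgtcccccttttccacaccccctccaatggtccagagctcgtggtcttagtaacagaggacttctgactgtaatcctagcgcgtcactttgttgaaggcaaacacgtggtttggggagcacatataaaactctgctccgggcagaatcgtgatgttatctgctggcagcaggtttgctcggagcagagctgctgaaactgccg
Ltbp1: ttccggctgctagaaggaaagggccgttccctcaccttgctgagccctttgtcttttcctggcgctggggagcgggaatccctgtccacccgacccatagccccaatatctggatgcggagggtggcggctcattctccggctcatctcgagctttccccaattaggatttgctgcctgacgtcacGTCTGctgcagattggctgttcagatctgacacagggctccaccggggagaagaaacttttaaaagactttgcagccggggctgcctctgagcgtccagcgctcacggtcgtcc
Gdf10: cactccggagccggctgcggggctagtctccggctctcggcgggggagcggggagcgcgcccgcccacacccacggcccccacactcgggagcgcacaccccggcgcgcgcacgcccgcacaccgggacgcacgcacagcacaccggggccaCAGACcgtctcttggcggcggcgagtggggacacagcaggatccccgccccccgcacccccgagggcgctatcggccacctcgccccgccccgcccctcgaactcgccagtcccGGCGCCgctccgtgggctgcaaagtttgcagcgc
Inhbb: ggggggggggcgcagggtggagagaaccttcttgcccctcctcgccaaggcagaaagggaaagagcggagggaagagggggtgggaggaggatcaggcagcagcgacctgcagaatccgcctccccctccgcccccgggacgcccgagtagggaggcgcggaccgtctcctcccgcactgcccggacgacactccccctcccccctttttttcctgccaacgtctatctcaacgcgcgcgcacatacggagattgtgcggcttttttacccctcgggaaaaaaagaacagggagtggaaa
The Tgfb2 window held CAGAC at -221 and -204 from the start site, the Ltbp1 window held GTCTG at -64, and the Gdf10 window held CAGAC at -98 and GGCGCC at 17. The Inhbb window held neither motif. The window of the other annotated Ltbp1 start, not shown, held GTCTG at -148 and -97. Of the members, 31 had windows in the table, 39 windows in all. CAGAC or GTCTG was found in 19 of 39 member windows (48.7%), against 49.6% of 32851 promoter windows. GGCGCC was found in 14 of 39 (35.9%), against 11.9% of all windows, and the median GC content was 65.0% in member windows and 52.7% in all windows. These matches describe letters, and binding was not measured.

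Tgfb2, the TGF-beta isoform known for its part in follicle induction, was the only one of the 43 measured members at least 0.5 log2 units below wild type in both uncv null arrays. Its brightest probe set had log2 values of 4.76 in uncv null 1 and 4.29 in uncv null 2, against 5.51 in wild type. Both uncv null arrays lay below wild type, by 0.75 and 1.22 log2 units. The mean difference was -0.99 ± 0.26 in the fit with no filter, where it had an unadjusted p of 0.0085 and an adjusted p of 0.9999. Its mean of 4.85 was below the filter, so it is not among the 34, and without a filter 1.33% of 18193 named genes were at least 0.5 lower in both arrays.

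The other Tgfb2 probe sets gave the same direction. The second had 4.61 and 4.35 in uncv null 1 and 2, against 5.27 in wild type, and the next had 4.29 and 3.61, against 4.84. The dimmest had 3.59 and 3.60, against 4.00 in wild type, close to the array medians of 3.70 and 3.65 in uncv null 1 and 2 and 3.70 in wild type. All 4 were lower in both uncv null arrays, and 2.1% of the 1949 genes with at least 4 probe sets had every one of them lower in both. Genes with more than 4, such as Bmpr1a with 6, are among the 1949. Probe sets of 1 gene read the same RNA and are not replicates. Without detection calls, how far the uncv null values stood above background is not known.

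Tgfb3, the isoform known for its part in palate fusion, had 6.16 and 5.88 in uncv null 1 and 2, against 6.58 in wild type. Both uncv null arrays lay below wild type, by 0.42 and 0.70, and the mean difference was -0.56 ± 0.28 (limma unadjusted p = 0.092, or 0.049 in the fit with no filter). Tgfb1, the isoform of inflammation and fibrosis, pointed the other way, with 6.20 and 6.23 in uncv null 1 and 2, against 5.92 in wild type. That difference, 0.29 ± 0.26, was close to its error, and it was -0.27 when arrays were centred on the spike-ins, a scaling that put the median of all tested genes at -0.53.

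Gdf10, a BMP-related ligand close to Bmp3, had 6.16 in uncv null 1 and 4.20 in uncv null 2, against 6.49 in wild type. Its differences from wild type were -0.33 and -2.29, so the mean difference of -1.31 ± 0.75 rested mainly on 1 array, and the uncv null 2 value is below 5, where its height above background is not known. Inhbb, which encodes the beta subunit of activin B and is known from fat cells, had 6.58 and 7.33 in uncv null 1 and 2, against 6.29 in wild type. Both uncv null arrays lay above wild type, by 0.28 and 1.03, with a mean difference of 0.66 ± 0.37. Its second probe set was flat at 4.66 and 4.69, against 4.70 in wild type, and with the mean of both probe sets the difference was 0.32.

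Bmp7, a ligand of epidermis and kidney development whose values were singled out after they were seen, had 6.55 and 6.95 in uncv null 1 and 2, against 6.34 in wild type, a mean difference of 0.41 ± 0.29 that was -0.15 with spike-in centring. Its second probe set also lay above wild type in both arrays, by 0.18 and 0.47, while the last lay 0.92 below wild type in uncv null 1 and 0.23 above it in uncv null 2, and the mean of the probe sets differed by 0.13. Bmp4, a mesenchymal BMP that acts on the hair matrix, had 6.93 and 6.999, against 7.01 in wild type. Bmp2, the BMP of the hair matrix and differentiating epidermis, had 5.81 and 5.65, against 5.94. For Bmp4 and Bmp2 the difference farthest from 0 was the -0.29 of Bmp2 in uncv null 2. Bmp6, a BMP of suprabasal epidermis, and Inhba, the activin A subunit, had means under 5 and differed from wild type by -0.35 to 0.09.

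**Figure D2:**
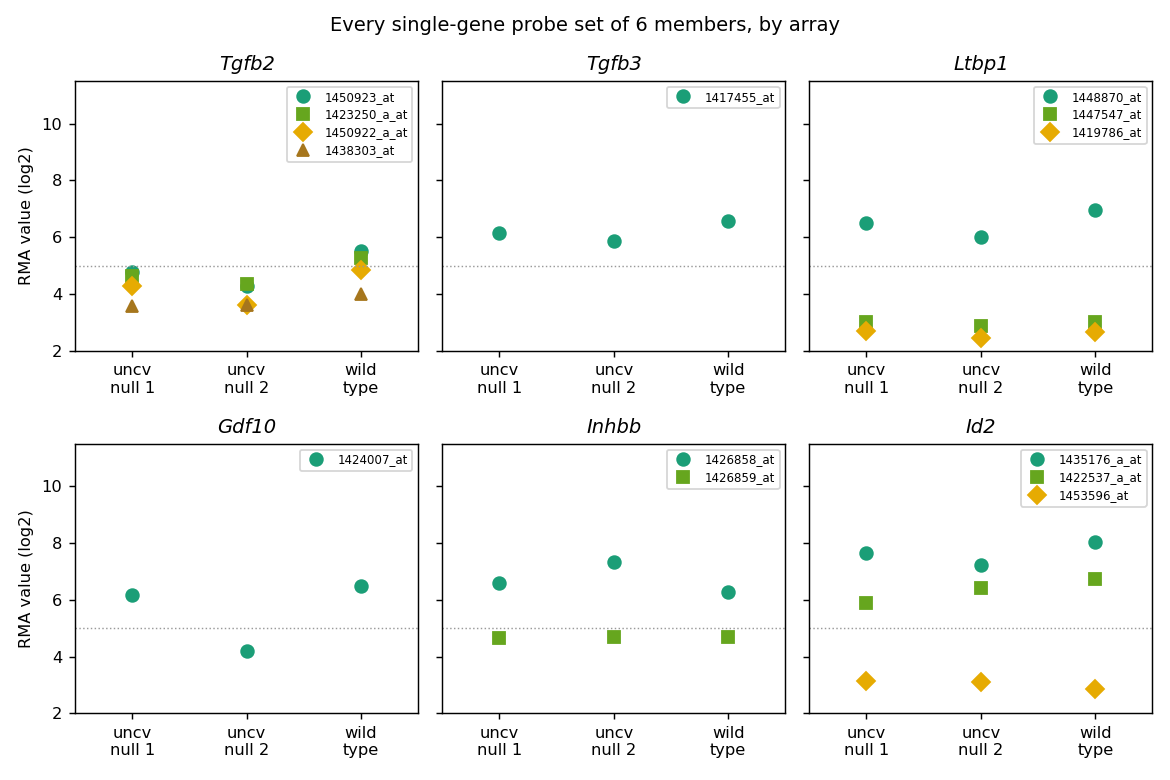
RMA values (log2, vertical) of every single-gene probe set of 6 members in uncv null 1, uncv null 2 and wild type, from left to right, with the dotted line at the filter of 5. The 4 Tgfb2 probe sets all sit highest in wild type, Gdf10 is low in uncv null 2 alone, and the second Inhbb probe set stays between 4.66 and 4.70.

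The latent TGF-beta binding proteins hold TGF-beta precursors in the matrix or build elastic fibres. Ltbp1, which tethers latent TGF-beta to microfibrils, had 6.51 and 5.99 in uncv null 1 and 2, against 6.95 in wild type. Both uncv null arrays lay below wild type, by 0.44 and 0.95, and the mean difference was -0.69 ± 0.32 (limma unadjusted p = 0.073, or 0.042 in the fit with no filter). Its 2 other probe sets were dim, at 2.43 to 3.02 on all arrays, and with the mean of all 3 the difference was -0.29. Ltbp2, an elastic fibre protein that does not bind latent TGF-beta, had 5.96 in uncv null 1 and 4.50 in uncv null 2, against 5.51 in wild type. Wild type lay between the uncv null arrays, and the difference turned sign between them, at 0.45 and -1.01. Ltbp4, which acts in elastic fibre assembly, had 7.11 and 6.78, against 7.23 in wild type. Ltbp3, which binds latent TGF-beta, had 8.23 and 7.86, against 7.92.

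Markers of other cell types are given beside these ligands and matrix proteins. None of the markers of the 8 lists passed limma's adjusted test, and the counts below stand beside the 38.8% of tested genes that were higher and 26.4% that were lower in both uncv null arrays. All 6 tested fibroblast markers (Col1a1, Col1a2, Col3a1, Pdgfra, Lum and Dcn) were lower than wild type in both uncv null arrays, with medians of -0.09 in uncv null 1 and -0.43 in uncv null 2. Their summed linear signal reached 20130 and 15983 in the uncv null arrays, against 21513 in wild type. Of 9 skeletal muscle markers 8 were lower in both, with medians of -0.80 and -1.11 and summed signals of 9759 and 8449, against 13741 in wild type. Of 5 tested dermal papilla markers 4 were lower in both, while Prom1 went the other way, with differences of 0.36 (uncv null 1) and 1.03 (uncv null 2). Over all 5 the medians were -0.22 and -0.34, and the summed signals 883 and 734, against 1086 in wild type. All 5 tested white adipocyte markers were higher in both, with medians of 0.54 and 0.81 and summed signals of 5445 and 6146, against 4191 in wild type. No marker is at 0 on this scale. The part of these tissues in the values of Tgfb2, Tgfb3, Gdf10, Ltbp1 and Inhbb was not tested, and fewer cells of a type and less RNA per cell cannot be told apart in whole skin.

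**Figure D3:**
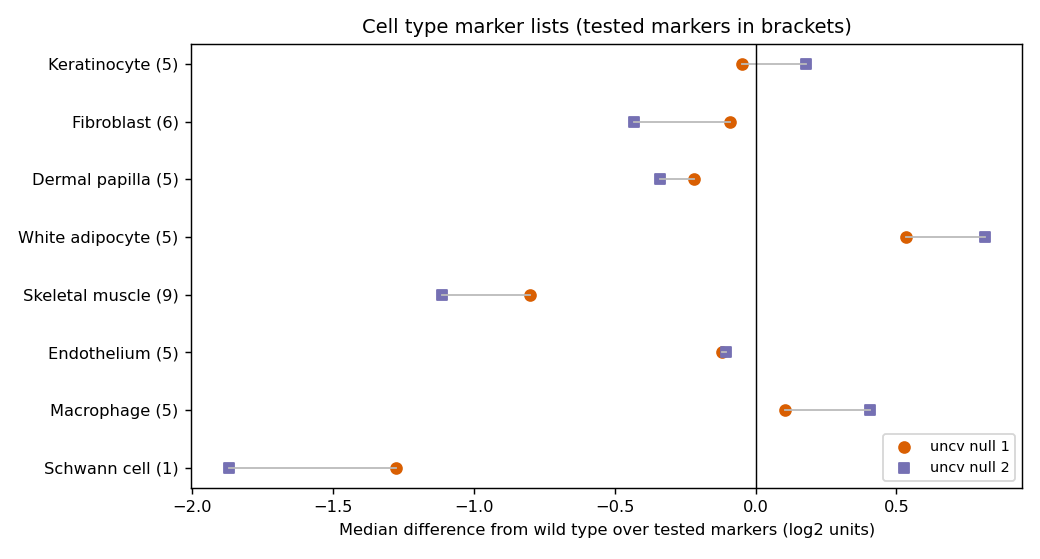
Median difference from wild type (log2 units, horizontal) over the tested markers of 8 cell types in uncv null 1 (circles) and uncv null 2 (squares), with the number of tested markers in brackets. White adipocyte medians are at 0.54 and 0.81, skeletal muscle medians at -0.80 and -1.11, and the Schwann cell list rests on Mbp alone.

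Of 8 tested receptors 5 had both uncv null arrays above wild type and 2 had both below, beside 38.8% and 26.4% of all tested genes, with a median difference of 0.06 and a range from -0.42 to 0.40. Centring on the spike-ins put all 8 below wild type, from -0.98 to -0.16. Tgfbr2, the type II TGF-beta receptor, had 9.14 and 9.08 in uncv null 1 and 2, against 9.01 in wild type. Tgfbr3, the co-receptor betaglycan, had 9.03 and 9.03, against 9.01. Bmpr1a, the type I BMP receptor that hair shaft differentiation requires, had 8.15 and 8.06, against 8.12. Bmpr2, the type II BMP receptor, had 9.30 and 9.30, against 9.09. Among these brightest probe sets the difference farthest from 0 in either array was the 0.21 of Bmpr2 in uncv null 1. Other tested probe sets of the same genes lay farther off. One of Tgfbr2 differed by -0.80 and -0.06 in uncv null 1 and 2, one of Tgfbr3 by -0.38 and -0.16, and one of Bmpr1a by -0.38 and -0.13. With the mean of probe sets Tgfbr2 was at -0.12, Tgfbr3 at -0.13, Bmpr1a at -0.07 and Bmpr2 at 0.03.

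Acvr1, Acvr1b and Acvr2a had the largest absolute mean differences among the tested receptors. Acvr1, a type I receptor for BMPs and activins, had 6.41 and 6.05 in uncv null 1 and 2, against 6.65 in wild type, a mean difference of -0.42 ± 0.29. Acvr1b, the type I activin receptor, had 7.62 and 8.05, against 7.44, a mean difference of 0.40 ± 0.30. Acvr2a, a type II activin receptor, had 8.47 and 8.42, against 8.10, a mean difference of 0.35 ± 0.26, and its second probe set lay above wild type by 0.10 and 0.53. With the mean of probe sets Acvr1 was at -0.18 and Acvr1b at 0.12. Centring on the spike-ins put both Acvr1b and Acvr2a below wild type, at -0.16 and -0.21, where the median of all tested genes was -0.53. Tgfbr1, the type I TGF-beta receptor, had 7.85 and 7.47 in uncv null 1 and 2, against 7.97. Bmpr1b and Acvr2b were under the filter and differed by -0.27 to 0.15.

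Of the 6 tested Smads 3 had both uncv null arrays above wild type and 1 had both below, beside 38.8% and 26.4% of all tested genes, with a median difference of 0.11. Smad1, a BMP branch Smad, had 8.58 and 8.61 in uncv null 1 and 2, against 8.46 in wild type, a mean difference of 0.14 that was -0.0096 with the mean of its probe sets. Smad5, its close relative, had 7.47 and 7.52, against 7.23, a mean difference of 0.27 ± 0.26, which became -0.16 with the mean of its probe sets and -0.29 with spike-in centring. Smad2 had 6.44 and 6.73, against 6.51, and Smad3 had 7.40 and 7.23, against 7.23, and in these brightest probe sets wild type lay between the uncv null arrays. The second Smad2 probe set was above wild type by 0.61 and 0.23 in uncv null 1 and 2, and with the mean of probe sets Smad2 was at 0.25 and Smad3 at -0.19. Centring on the spike-ins put Smad1, Smad2 and Smad3 at -0.43, -0.48 and -0.48. Smad4, the shared partner, had 8.86 and 8.59, against 8.96, a mean difference of -0.23 ± 0.27. Its other probe sets differed by -0.13 and 0.16 and by 0.12 and -0.21 in uncv null 1 and 2, and the mean of probe sets by -0.09. Smad7, an inhibitory Smad induced by TGF-beta, had 5.30 and 5.68 in uncv null 1 and 2, against 5.06 in wild type, a mean difference of 0.42 ± 0.29 that was -0.14 with spike-in centring. The second Smad7 probe set differed by 0.22 and -0.0018, and the mean of both by 0.27. None of these differences passed the test.

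Among antagonists and modulators, the extracellular BMP antagonists Nog, Chrd and Grem1 were all under the filter. Nog had 3.58 and 3.29 in uncv null 1 and 2, against 3.54 in wild type. Chrd had 4.03 and 3.35, against 4.01, and Grem1 had 3.93 and 3.33, against 4.05. Each was lowest in uncv null 2, near that array's median of 3.65. Follistatin (Fst), which neutralises activins, had 8.20 in uncv null 1 and 7.58 in uncv null 2, against 8.12 in wild type, and its second probe set differed by 0.08 and -0.16. Skil, a nuclear repressor of Smads, had 9.08 and 8.84, against 8.72, a mean difference of 0.24 ± 0.27 that was -0.32 with spike-in centring. Twsg1, a partner of chordin in BMP binding, had 7.44 and 7.46, against 7.54, but its 2 further tested probe sets lay 0.88 and 1.38 below wild type in uncv null 1 and 0.30 and 0.32 below in uncv null 2.

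Other probe sets of the members were also read. Besides the representative ones, 24 further member probe sets in 15 genes passed the filter, and 18 of the 24 shared the sign of the representative's mean difference. By array, 14 of 24 shared its sign in uncv null 1, the array with the highest 18S signal and Actb 3' minus 5' difference, and 18 of 24 in uncv null 2. In uncv null 1, 5 of the 24 lay at least 0.5 below wild type, against 2 of the 34 representative probe sets. In uncv null 2 these counts were 2 of 24 and 8 of 34. Whether RNA quality had a part in these counts was not tested. Both further Twsg1 probe sets given above are among the 5. The same shares over further probe sets of all genes are not given here, so these counts cannot be read as particular to the members.

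The Id genes encode helix-loop-helix proteins that lack a DNA-binding region and are direct targets of BMP-activated Smads. Promoters of Id2 and Id3 are shown because the Id genes read out the pathway, with the same capitals and source as above. The windows are chr12:25096043-25096342 (minus strand) for Id2 and chr4:136143572-136143871 (plus strand) for Id3.
Id2: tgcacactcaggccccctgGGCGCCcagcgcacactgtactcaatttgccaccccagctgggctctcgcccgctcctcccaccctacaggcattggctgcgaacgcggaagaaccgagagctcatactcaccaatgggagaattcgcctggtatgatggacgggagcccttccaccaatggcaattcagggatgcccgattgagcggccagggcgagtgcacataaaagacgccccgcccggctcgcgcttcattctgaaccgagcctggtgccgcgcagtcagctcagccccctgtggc
Id3: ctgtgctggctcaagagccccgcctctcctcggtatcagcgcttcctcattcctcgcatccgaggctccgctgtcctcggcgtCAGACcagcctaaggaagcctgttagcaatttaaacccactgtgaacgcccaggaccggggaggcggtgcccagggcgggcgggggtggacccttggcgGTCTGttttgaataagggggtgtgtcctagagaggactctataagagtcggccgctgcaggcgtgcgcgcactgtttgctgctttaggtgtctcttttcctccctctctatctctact
The Id2 window held GGCGCC at -231, and the Id3 window held CAGAC at -167 and GTCTG at -68. The Id4 window, not shown, held GGCGCC at -148, and Id1 had no window.

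Id2 had log2 values of 7.63 in uncv null 1 and 7.22 in uncv null 2, against 8.03 in wild type. Both uncv null arrays lay below wild type, by 0.39 and 0.81, with a mean difference of -0.60 ± 0.30 (limma unadjusted p = 0.092). Its second tested probe set was also lower in both, by 0.86 and 0.32, while another, at 2.86 to 3.13 on all arrays, was higher by 0.28 and 0.23, and the mean of the 3 differed by -0.31. Id1 had 7.41 in uncv null 1 and 8.72 in uncv null 2, against 8.38 in wild type. Wild type lay between the uncv null arrays, which differed from it by -0.97 and 0.34. Id3 had 7.05 and 7.59, against 7.53, so only uncv null 1 was lower. Id4 had 8.83 and 9.12, against 8.89, and its 2 other probe sets differed by 0.38 and 0.36 and by -0.44 and 0.73 in uncv null 1 and 2. Tgfbi, a matrix protein induced by TGF-beta, had 9.06 and 8.78, against 9.02, and in uncv null 2 its 4 probe sets lay between 0.25 and 0.99 below wild type.

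The lower Id values in uncv null 1 stood beside lower values of several other genes that BMP signalling induces. Bambi, a pseudoreceptor that dampens BMP and TGF-beta signals, had 6.95 in uncv null 1 and 7.56 in uncv null 2, against 7.49 in wild type. Smad6, the BMP-induced inhibitory Smad, had 4.62 and 5.10, against 5.03. The homeobox genes Msx1 and Msx2, BMP targets of the hair matrix that are not members, lay 0.45 and 0.41 below wild type in uncv null 1, while uncv null 2 differed by -0.08 and 0.37. Over 11 such genes (Id1 to Id4, Smad6, Smad7, Bambi, Msx1, Msx2, Hey1 and Atoh8) uncv null 1 had a median difference of -0.41 and uncv null 2 one of 0.07. They were grouped after their values were seen and 3 are under the filter, so these medians only describe them. Not all 11 were lower in uncv null 1. Smad7 differed by 0.24 and 0.61 in uncv null 1 and 2, Atoh8 by 0.14 and -0.20, and Hey1 by 0.01 and -1.06. The higher 18S signal and 3' to 5' difference of uncv null 1 given above stand beside these values, and their part was not tested.

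**Figure D4:**
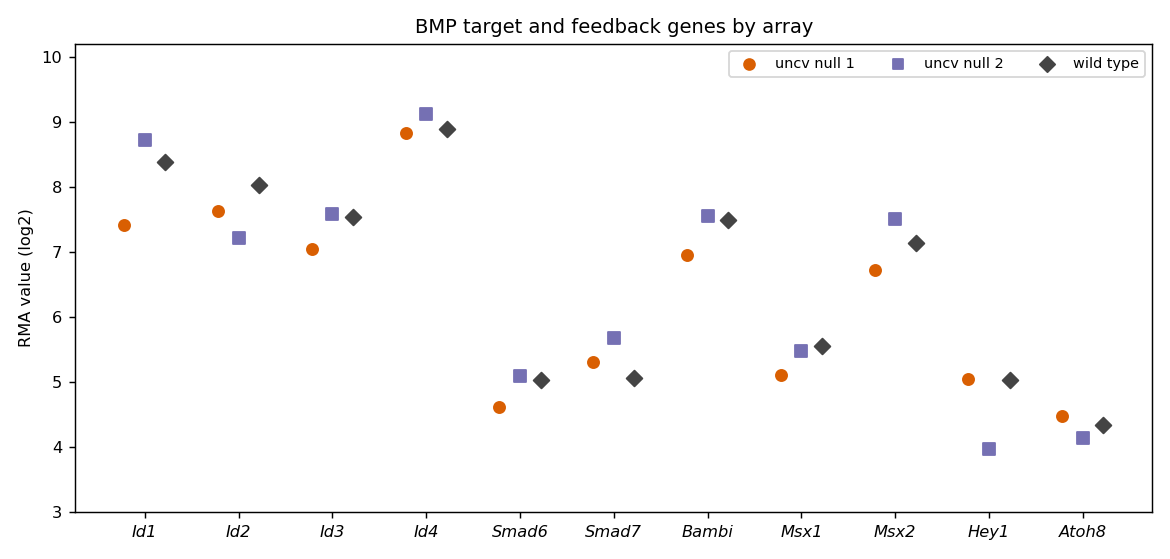
RMA values (log2, vertical) of 11 BMP target and feedback genes in uncv null 1 (circles), uncv null 2 (squares) and wild type (diamonds). Id1, Id3, Bambi, Smad6 and Msx2 are lowest in uncv null 1, with uncv null 2 above wild type, and Id2 is below wild type in both. Smad7, Hey1 and Atoh8 are above wild type in uncv null 1.

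Other genes of the pathways, 60 in all, were listed apart from the members. Of these 53 had a single-gene probe set and 36 were tested. Both uncv null arrays lay above wild type in 11 and below it in 17, beside 38.8% and 26.4% of all tested genes, 0 passed limma's test at the adjusted threshold, 0 had an unadjusted p under 0.05, and the median difference was -0.03. Bmper, a secreted BMP-binding modulator, was the 1 gene at least 0.5 from wild type in both, with 5.57 and 5.72 in uncv null 1 and 2, against 5.005 in wild type, a mean difference of 0.64 ± 0.26. That is 1 of 36 higher and 0 of 36 lower, beside the 2.52% and 1.86% of tested genes given above. Centring on the spike-ins left 0 of them higher by this rule.

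The remaining genes are named here after their values were seen. Furin, the protease that cuts TGF-beta and BMP precursors, had 7.19 and 6.96 in uncv null 1 and 2, against 6.47 in wild type. Ccn1, a matrix signalling protein that TGF-beta can induce, had 6.45 and 6.07, against 5.64. Fbn2, a microfibril protein that binds latent TGF-beta complexes and BMPs, had 8.70 and 8.06, against 8.95. Ccn2, a widely used TGF-beta target, had 7.74 and 7.28, against 7.45, so wild type lay between the uncv null arrays. Col1a1 and Dcn, which are also on the fibroblast list, lay below wild type by 0.13 and 0.11 in uncv null 1 and by 0.67 and 0.59 in uncv null 2. The 11 tested intracellular regulators, among them the Smad ubiquitin ligases Smurf1 and Smurf2, had a median difference of -0.01, and the 9 tested targets had one of -0.02.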

How the data were processed

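Total RNA of dorsal skin was measured on 3 one-colour arrays, 2 from uncv null mice and 1 from a wild type mouse, grouped by the sample titles. The authors deposited log2 values made with RMA, which the submitters' processing notes name; its software and version are not stated in what was used here. Values ran from 1.96 to 13.1. RMA forces arrays to one distribution, so a shift of all transcripts cannot be seen. The number of arrays limits the precision.

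Of 45101 probe sets, 64 were controls; 34945 had 1 gene symbol in the platform annotation, 932 several and 9160 none. Probe sets averaging 5 or more (log2) entered the fit, made with limma 3.58.1 under R 4.3.3 (lmFit, eBayes without trend, 1 residual and 4.75 prior degrees of freedom, Benjamini-Hochberg over 13559 probe sets, threshold 0.05). The procedure was tested on simulated data. Members, lists and rules were chosen with earlier results of these data known. Named with full values were, per role, members past the 0.5 log2 rule in both arrays, the 3 largest absolute mean differences, and members on opposite sides by at least 0.5; others are given as levels. Alternatives were filters, probe set means, scalings, an intensity trend, adjustment over 1 probe set per gene, and leaving out each uncv null array.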

Additional observations from a re-analysis of the deposited data

How the results depend on the processing

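The count of 0 members past limma held under every alternative run except centring on the spike-ins, where 1 member, Gdf10, was called lower (-1.87, adjusted p = 0.019) among 50 genes called. That centring moved the median of all tested genes to -0.53, against 0.04 on the deposited scale. With it, 4 members were at least 1 log2 unit lower in both uncv null arrays. The share of all tested genes past that cutoff is not given here. At least 0.5 lower in both were 12 of 34 members, beside 30.2% of all tested genes. Above wild type in both were 0 members and below it 30, beside 1.12% and 85.4% of all tested genes. The member median was -0.59. Among the 36 tested other pathway genes, 0 were then at least 0.5 higher and 17 lower, beside 0.142% and 30.2% of all tested genes. It also gave differences of -0.16 for Acvr1b, -0.21 for Acvr2a, -0.29 for Smad5, -0.14 for Smad7 and -0.32 for Skil. With no filter, 1 of 43 members (Tgfb2) was at least 0.5 lower in both, beside 1.33% of 18193 named genes, and the member median was -0.11. With the filter at 7, 22 members were left among 3627 genes. Of these members 5 were lower in both and 8 higher, beside 26.5% and 39.8% of those genes. The median of the 22 was 0.0037, and 0 other pathway genes were at least 0.5 higher, beside 2.1% of those genes. With the mean of probe sets, 6 of 34 members were higher in both and 15 lower, beside 33.4% and 29.6% of all tested genes. The member median was then -0.13, against 0.0083 over all tested genes, and Smad5 was at -0.16. Median centring gave a median of -0.0559 and quantile normalization one of -0.0557.

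Without uncv null 1 or without uncv null 2 the differences carry no test. Without uncv null 1, 1 of 34 members was at least 1 log2 unit higher and 2 were lower. Without uncv null 2 both counts were 0. Shares of all tested genes past 1 log2 unit are not given here for these settings. At least 0.5 higher were 4 members without uncv null 1 and 0 without uncv null 2, and at least 0.5 lower were 8 and 2. Members higher than wild type numbered 17 to 18 and members lower 16 to 17, and the median ranged from 0.0068 to 0.0279. Of all tested genes, 10.4% were at least 0.5 higher and 7.28% lower without uncv null 1. Without uncv null 2 each share was 4.55%. Tested genes above wild type made up 58.8% without uncv null 1 and 53.5% without uncv null 2, and those below it 41.2% and 46.5%. Other pathway genes at least 0.5 higher numbered 2 without uncv null 1 and 4 without uncv null 2, and those at least 0.5 lower 5 and 0. Bambi ranged from -0.542 to 0.0668, Id1 from -0.967 to 0.342 and Id3 from -0.483 to 0.0553, each above 0 without uncv null 1. Ltbp2 ranged from -1.01 to 0.448 and Fst from -0.544 to 0.0756, each above 0 without uncv null 2. For these reversals the cause was not tested beyond the array left out. No paired analysis was possible because there was 1 wild type array and the labels do not pair the animals. With 1 wild type array, leaving that one out was not possible. Dim probe sets have no detection calls here. Those of Nog and Chrd and the dimmest of Tgfb2 were near the array medians, and the other Tgfb2 probe sets were brighter.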
